A study of Mus musculus with 5 samples.

Results

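Broad H3K4me3 peaks of control tumours are described here, taken as the peaks of the control H3K4me3 list on chromosomes 1 to 19 that were at least 4000 bp wide. They numbered 1149 of the 43472 listed peaks on these chromosomes and of 44676 listed in all. They were chosen by their width in that list, so their widths and their scores in that list are given as a description. The study profiled brain tumours induced with PDGFB in mice of a mixed C57Bl/6;129Sv;CD-1 background, collected 25 days after the virus was injected. Olig2cKO tumours carried Olig2f/f, floxed alleles of Olig2, on top of the floxed alleles that control tumours also had, P53f/f among them. The 5 libraries covered Olig2 in control tumours, H3K27ac in each genotype and H3K4me3 in each genotype, with 1 library per group. The sources used here do not say how many tumours entered a library or in which cell type the alleles were recombined. Olig2 was profiled here in control tumours only, so its loss from the Olig2cKO tumours was not checked.

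H3K4me3, trimethylation of lysine 4 on histone H3, marks mainly promoters, where the methyltransferases that write it meet initiating RNA polymerase and unmethylated CpG islands. At most promoters the mark is narrow, whereas broad domains of it are known for genes that keep the identity of a cell type and for genes transcribed steadily at a high level. H3K27ac, acetylation of lysine 27, marks active promoters and enhancers and is lost where a promoter is repressed. Olig2 is a basic helix-loop-helix transcription factor of the oligodendrocyte lineage that binds both promoters and enhancers. Gene positions on mm9, the build of the lists, were not used here, so peaks are named by their position, counted from 1, and none is assigned to a gene.

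Broad peaks made up 2.64% of the control H3K4me3 peaks on chromosomes 1 to 19 and covered 5.89 Mb, or 9.72% of the bases under H3K4me3. Their median width was 4755 bp, with quartiles of 4308 and 5638 bp, and the widest measured 9145 bp. Between 39 and 91 lay on each chromosome, which was 2.06% to 3.63% of the peaks there. The peaks of 1000 to 2000 bp set beside them numbered 16677. Overlaps were computed from the listed starts and ends.

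Broad peaks were mostly high in score but the widest of them were low. The score is the one the authors' peak caller gave each peak, it ranks peaks inside a list, and it was not scaled between libraries. Broad peaks had a median score of 1157, with a range of 54.7 to 3233, against a median of 569 in the peaks of 1000 to 2000 bp. Among the broad peaks the median score fell from 1466 in the 675 peaks of 4 to 5 kb to 1031 in the 250 peaks of 5 to 6 kb. It was 769 in the 139 peaks of 6 to 7 kb, 435 in the 59 peaks of 7 to 8 kb and 145 in the 26 peaks of 8 kb or more. The highest class median was 1674, in the peaks of 3 to 4 kb just below the limit of choice. The 4 histone lists ended at widths of 8977 to 9285 bp, and the sources used here do not say what set that end.

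**Figure D1:**
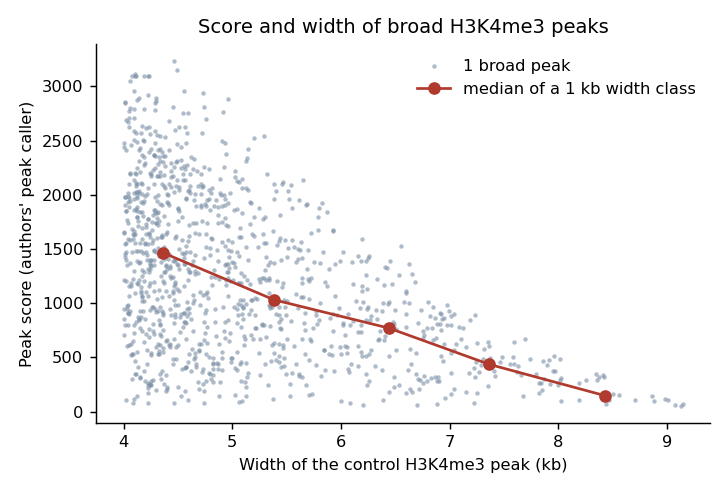
Width in kb (x axis) and peak score (y axis) of the 1149 broad H3K4me3 peaks of control tumours. Grey points are single peaks and red points are the medians of 5 width classes, which fall from 1466 at 4 to 5 kb to 145 at 8 kb or more.

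The 5 widest peaks had scores of 54.7 to 118, all in the lowest part of the range. The widest, at chr5:22935084-22944228, scored 71.5, held 2 Olig2 peaks, and was covered by H3K27ac over 75.3% of its bases in control and 79.0% in Olig2cKO tumours. No Olig2cKO H3K4me3 peak was listed over it. The next, at chr6:127096020-127105152, measured 9133 bp and also had no listed Olig2cKO H3K4me3 peak, with H3K27ac over 69.6% in Olig2cKO tumours and none listed in control tumours. The third, at chr19:5794485-5803563, had no listed H3K27ac in either genotype and no partner. So 3 of these 5 peaks had no Olig2cKO H3K4me3 partner although 2 of the 3 carried H3K27ac in Olig2cKO tumours.

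The peaks highest in score were short among the broad ones. The highest score, 3233, belonged to the 4467 bp peak at chr9:64019305-64023771, which held 1 Olig2 peak and whose Olig2cKO partner was also 4467 bp wide. H3K27ac covered 74.5% of it in control and 76.5% in Olig2cKO tumours. The next was the peak at chr14:51682052-51686539, with a score of 3156, 2 Olig2 peaks over 68.5% of its bases and a partner of 4582 bp. The score 3100 was shared by 6 broad peaks, of which the first 2 in chromosome order completed the 5 highest. All 5 had H3K27ac in both genotypes and a partner, and 4 of the 5 held an Olig2 peak.

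Broad peaks lay apart from other H3K4me3 peaks. The nearest other control H3K4me3 peak was at a median distance of 10.5 kb, against 5.25 kb for the peaks of 1000 to 2000 bp. Another H3K4me3 peak lay within 1 kb of 15.8% of the broad peaks and of 37.4% of the peaks of 1000 to 2000 bp. The nearest other broad peak was at a median distance of 459 kb. Only 40 broad peaks lay within 10 kb of another, in 20 pairs and in no longer run.

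More broad peaks than peaks of 1000 to 2000 bp held an Olig2 peak, and more of them held several, but the added Olig2 peaks lay away from the middle. An Olig2 peak overlapped 905 of the 1149 broad peaks by at least 1 bp, which is 78.8% (exact 95% interval 76.3% to 81.1%), beside 56.4% of all control H3K4me3 peaks. The share was 62.4% (61.7% to 63.2%) in the peaks of 1000 to 2000 bp, so that the difference was 16.3 percentage points (95% interval 13.8 to 18.7). It was higher in broad peaks on 19 of 19 chromosomes. The intervals cover counting error only, neighbouring peaks are not independent, and with 1 library per group no value has a replicate check.

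By number, 244 broad peaks held no Olig2 peak, 806 held 1, 98 held 2 and 1 held 3. At least 2 Olig2 peaks were found in 8.62% of the broad peaks, beside 1.01% of all and 0.654% of those of 1000 to 2000 bp. The share with 2 or more went from 7.41% at 4 to 5 kb to 10.1% at 6 to 7 kb and 19.2% at 8 kb or more. The mean was 0.875 Olig2 peaks per broad peak against 0.631 per peak of 1000 to 2000 bp. Per kb of H3K4me3 the order turned, with 0.171 Olig2 peaks in broad peaks and 0.455 in those of 1000 to 2000 bp. Olig2 peaks covered 22.5% of the bases of broad peaks and 35.5% of the bases of the others.

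A window of the same size in every peak gave the opposite order to the whole peak. In the middle 1 kb, 37.5% of broad peaks (34.7% to 40.4%) and 57.9% of the peaks of 1000 to 2000 bp (57.1% to 58.6%) were touched by an Olig2 peak, beside 51.2% of all. The difference was -20.4 percentage points (-23.2 to -17.4), and the share was higher in broad peaks on 0 of 19 chromosomes. The decline set in gradually with width. It was 57.7% in peaks of 2 to 3 kb and 53.9% in peaks of 3 to 4 kb. Among broad peaks it was 41.9% at 4 to 5 kb, 38.0% at 5 to 6 kb, 22.3% at 6 to 7 kb, 25.4% at 7 to 8 kb and 26.9% at 8 kb or more, and the intervals of the last 3 classes overlap. The share with an Olig2 peak anywhere was 78.1%, 79.6%, 79.1%, 78.0% and 88.5% in the same 5 classes, with intervals that all overlap.

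**Figure D2:**
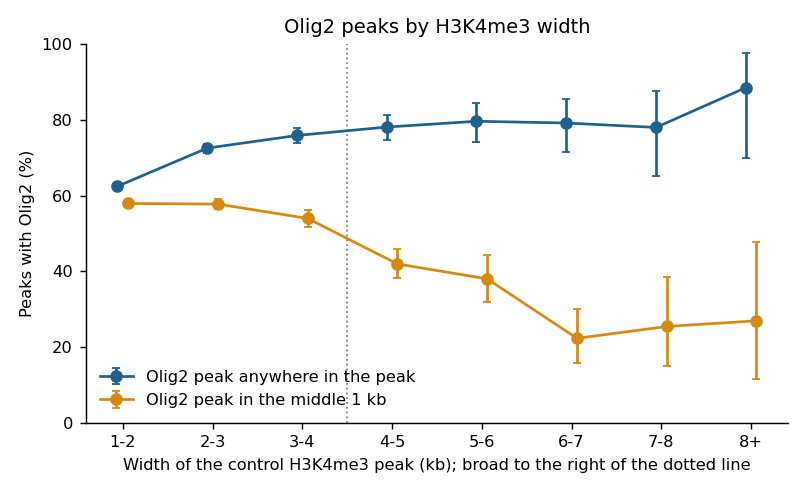
Share of control H3K4me3 peaks with an Olig2 peak (y axis, percent) by width in kb (x axis), with exact 95% intervals. Blue points count an Olig2 peak anywhere in the peak and orange points one in the middle 1 kb, which falls from 57.9% at 1 to 2 kb to 22.3% at 6 to 7 kb while the blue points stay between 78.0% and 88.5% in the broad classes.

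Within a broad peak, Olig2 lay between the middle and the edge. Of the 877 Olig2 peaks whose middle fell inside a broad peak, 17.1% lay in the innermost of 5 equal zones between the centre and the edge. Going outward, the next 4 zones held 20.8%, 29.5%, 25.3% and 7.30%, with the largest share midway between centre and edge. In the peaks of 1000 to 2000 bp the 5 zones held 41.0%, 24.6%, 13.7%, 10.1% and 10.6% of 7769 Olig2 peaks, with the largest share at the centre. Averaged over both sides, Olig2 peaks covered 26.6% of the broad peaks at a point 20% of the width from an edge and 23.0% at the centre. The same points were covered in 35.1% and 42.8% of the peaks of 1000 to 2000 bp.

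**Figure D3:**
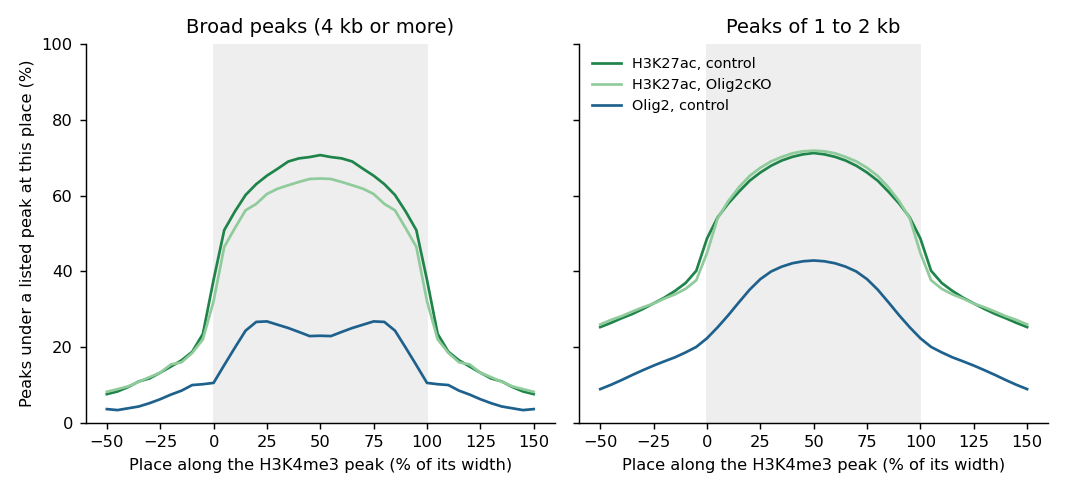
Share of H3K4me3 peaks that lie under a listed peak (y axis, percent) at each place along the peak (x axis, percent of its width, grey from edge to edge), averaged over both directions, for broad peaks (left) and peaks of 1 to 2 kb (right). In broad peaks the Olig2 line has a shallow dip at the centre (23.0%, against 26.6% at 20% of the width) and the line for H3K27ac in Olig2cKO tumours (64.5% at the centre) lies under that for control tumours (70.7%).

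The Olig2 peaks on broad H3K4me3 peaks were wider but no higher in score than those on shorter ones. There were 1004 of them, with a median width of 1328 bp and a median score in the Olig2 list of 110.6. The 9692 Olig2 peaks on H3K4me3 peaks of 1000 to 2000 bp had medians of 1022 bp and 117.4. Of the Olig2 peaks on broad peaks 11.3% were among the highest 10% of the Olig2 list by score, against 14.5% of those on the shorter peaks. The 244 broad peaks without Olig2 were at a median distance of 6.21 kb from the nearest Olig2 peak, and 60.7% of them had one within 10 kb. For peaks of 1000 to 2000 bp without Olig2 these values were 11.2 kb and 47.0%.

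Olig2 occupancy also went with the H3K4me3 score. Broad peaks with a score of 1000 to 2000 held Olig2 in 85.1% of cases and those with 2000 to 4000 in 90.0%, against 66.1% to 70.8% in the 3 classes below 1000. In the peaks of 1000 to 2000 bp the same classes gave 68.8%, 78.6% and 58.3% to 59.4%. Broad peaks were higher in each of the 5 score classes. In the middle 1 kb they were lower in each, with 59.5% against 67.9% at a score of 2000 to 4000 and 21.4% against 57.6% below 200.

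The broad peak with the most Olig2 peaks, 3, was the one at chr19:34624165-34628644. Olig2 covered 71.0% of its 4480 bp, H3K27ac 99.1% in control and all of it in Olig2cKO tumours, and its partner measured 4772 bp. The next by score, with 2 each, included the peak at chr10:127982978-127987086, where Olig2 covered 78.7%, and the peak at chr7:30551313-30555413, where it covered 44.0%. Their partners, 3998 and 3761 bp wide, were under 4000 bp. All 5 peaks that lead in Olig2 number had H3K27ac over at least 69.2% of their bases in both genotypes.

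H3K27ac was listed on most broad peaks in both genotypes, but it covered less of their length than of the peaks of 1000 to 2000 bp. In control tumours the median cover was 72.0% of the peak (69.3% to 74.8%), against 83.1% in the peaks of 1000 to 2000 bp. In Olig2cKO tumours it was 65.7% (61.6% to 68.9%) against 84.7%. Cover was lower in broad peaks on 17 of 19 chromosomes in control tumours. Among peaks with a score of 1000 or more the order turned, with medians of 78.6% in broad and 74.1% in the shorter peaks in control tumours and 76.2% and 75.1% in Olig2cKO tumours. It also turned in control tumours when the upper 50% of each list by score was used, at 64.6% and 55.5%. With all listed peaks used, those of 2 to 3 kb and of 3 to 4 kb had control medians of 72.7% and 70.9%. These control values were close to that of the broad peaks. In Olig2cKO tumours the same classes had medians of 70.8% and 69.7%. H3K27ac lay over the whole of 17.8% of broad peaks in control and 13.1% in Olig2cKO tumours, against 34.7% and 33.7% of the peaks of 1000 to 2000 bp. Summed over bases rather than peaks, the gap was smaller in control tumours, at 61.6% of the bases of broad peaks and 64.4% of the others, and was 56.5% against 64.9% in Olig2cKO tumours.

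Broad peaks with no listed H3K27ac were fewer than among the shorter peaks. They numbered 215 in control tumours, 18.7%, beside 33.4% of all control H3K4me3 peaks, and 248 in Olig2cKO tumours, 21.6%, beside 32.2%. In the peaks of 1000 to 2000 bp the shares were 25.4% and 24.7%. The differences were -6.64 percentage points (-8.89 to -4.19) in control and -3.16 (-5.54 to -0.607) in Olig2cKO tumours. Peaks of 2 to 3 kb lacked listed H3K27ac in 13.9% of cases in control and 15.5% in Olig2cKO tumours. Those of 3 to 4 kb lacked it in 11.0% and 12.7%, so broad peaks lacked it more often than either class. Where H3K27ac was listed, its median cover of a broad peak was 83.7% in control and 78.5% in Olig2cKO tumours, and the H3K27ac peaks had median widths of 4294 and 3865 bp.

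Where both genotypes listed H3K27ac, the median difference in its cover of a broad peak was small. This median does not give the spread over single peaks. Both did on 844 broad peaks, 73.5%, beside 59.9% of all control H3K4me3 peaks. Over these the median difference in cover, Olig2cKO minus control, was -0.58 percentage points (-1.27 to -0.11), with lower cover in Olig2cKO tumours on 462, higher on 306 and equal on 76. H3K27ac was listed in control tumours alone on 90 broad peaks, 7.83%, beside 6.71% of all control H3K4me3 peaks. It was listed in Olig2cKO tumours alone on 57, 4.96%, beside 7.92%, and in neither genotype on 158, 13.8%, beside 25.5%. A lack of H3K27ac was less common in control than in Olig2cKO tumours on 13 of 19 chromosomes. The Olig2cKO H3K27ac list was the longer one, with 67928 peaks on chromosomes 1 to 19 against 55323, and the depth behind either is unknown, so genotype and library cannot be told apart.

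H3K27ac over a broad peak was more often split into several listed peaks in Olig2cKO tumours. At least 2 H3K27ac peaks lay on 127 broad peaks, 11.1%, in Olig2cKO tumours and on 37, 3.22%, in control tumours, beside 2.61% and 0.899% of all control H3K4me3 peaks. The peaks of 1000 to 2000 bp had 1.58% and 0.63%, and those of 3 to 4 kb had 12.1% and 3.74%, close to the broad ones. At the centre of the peak, H3K27ac was listed on 70.7% of broad peaks in control and 64.5% in Olig2cKO tumours, while the peaks of 1000 to 2000 bp had 71.2% and 71.8%.

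The share of broad peaks without listed H3K27ac was higher at 6 kb or more than below that width. In control tumours it was 14.1% at 4 to 5 kb, 14.4% at 5 to 6 kb, 35.3% at 6 to 7 kb, 35.6% at 7 to 8 kb and 53.8% at 8 kb or more. In Olig2cKO tumours it was 16.4%, 23.2%, 36.0%, 33.9% and 34.6% in the same classes. H3K4me3 score falls over these classes too. Among broad peaks with a score of 500 or more the control share was 10.7% at 4 to 5 kb, 12.9% at 5 to 6 kb and 28.7% at 6 kb or more, and the Olig2cKO share 13.0%, 18.7% and 30.3%. Median scores in these 3 groups still fell, from 1588 to 1203 and 833, and the part of score in the rise was not tested.

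A lack of H3K27ac in 1 genotype was also set beside the width of the H3K27ac peak in the other. Where Olig2cKO tumours listed an H3K27ac peak of 6 kb or more on a broad peak, 20 of 156, 12.8% (8.01% to 19.1%), had none in control tumours. The share was 4.27% (2.23% to 7.34%) of 281 at 4 to 6 kb, 4.76% of 294 at 2 to 4 kb and 6.47% of 170 below 2 kb. In the other direction, 15.0% (10.4% to 20.7%) of 200 broad peaks with a control H3K27ac peak of 6 kb or more had none in Olig2cKO tumours. There the share was 9.43% (6.46% to 13.2%) of 318 at 4 to 6 kb, 6.85% of 336 at 2 to 4 kb and 8.75% (3.59% to 17.2%) of 80 below 2 kb. The class of 6 kb or more was highest in both directions. In the first, however, its interval overlaps that below 2 kb (3.27% to 11.3%). In the second it overlaps those at 4 to 6 kb and below 2 kb. A peak that is not listed is therefore not taken here as a mark that is absent, and the part of a limit on the width that a list can hold was not tested.

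**Figure D4:**
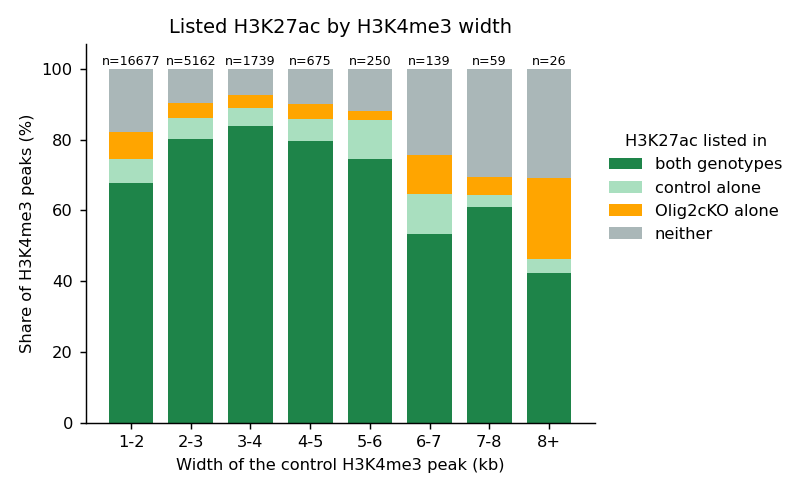
Share of control H3K4me3 peaks (y axis, percent) with H3K27ac listed in both genotypes, in control tumours alone, in Olig2cKO tumours alone or in neither, by H3K4me3 width in kb (x axis), with the number of peaks above each bar. The grey part, neither, is smallest at 3 to 4 kb (7.42%) and reaches 30.8% at 8 kb or more.

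Broad peaks with Olig2 carried more H3K27ac than those without it, in both genotypes. In control tumours the median cover was 76.0% with Olig2 and 52.5% without, and no H3K27ac was listed on 14.7% and 33.6%. In Olig2cKO tumours the medians were 70.4% and 41.6%, and the shares with none were 17.2% and 37.7%. The 99 broad peaks with 2 or 3 Olig2 peaks had median covers of 86.6% in control and 82.6% in Olig2cKO tumours. The peaks of 1000 to 2000 bp had the same order, with 14.0% and 44.2% lacking H3K27ac in control tumours. Broad peaks with Olig2 also had the higher median H3K4me3 score, 1247 against 800, and the part of score in the difference was not tested.

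The 5 highest in score among the broad peaks with H3K27ac in 1 genotype alone are given for each genotype. The highest in score with H3K27ac in Olig2cKO tumours alone, at chr5:123093058-123097702, scored 2327, was covered over all 4645 bp in Olig2cKO tumours, and had a partner of 4575 bp. The peaks at chr9:74919496-74923813 and chr15:25682039-25686793 were also covered whole, with partners of 4376 and 4828 bp. The peak at chr3:34536391-34541671 was covered over 99.1% and had a partner of 8312 bp, 1.57 times its own 5281 bp. The remaining one of these 5, at chr16:38090074-38094450, was covered over 35.1% and had no partner. So 4 of the 5 had an H3K4me3 peak in Olig2cKO tumours.

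In control tumours alone, the highest in score was the peak at chr14:67483314-67487559, with a score of 2560 and H3K27ac over 89.4%. Its Olig2cKO partner was 5821 bp wide, 1575 bp wider than its own 4246 bp. The peak at chr3:85775374-85780136 was covered whole in control tumours and its partner measured 5442 bp. The other 3 had control cover of 66.9% to 79.3%. All 5 held 1 Olig2 peak and all 5 had an H3K4me3 partner in Olig2cKO tumours.

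Most broad peaks had an Olig2cKO H3K4me3 partner that was itself broad, and the partner was somewhat wider. A partner, the widest Olig2cKO H3K4me3 peak overlapping by at least 1 bp, was listed for 1080 of the 1149. It measured 4000 bp or more for 968, 84.2% (82.0% to 86.3%), beside 6.07% of all control H3K4me3 peaks. The share was 2.83% in the peaks of 1000 to 2000 bp and 32.5% in those of 3 to 4 kb. Broad peaks were chosen at the same limit of 4000 bp in the control list. Over the 1080 the median width was 4714 bp for the control peak and 5075 bp for its partner. Partners exceeded the control peak by a median of 195 bp (153 to 231), with quartiles of -88.2 and 651 bp. The partner was wider for 732, 67.8%, beside 79.6% of all control H3K4me3 peaks with a partner, and narrower for 346, 32.0%, beside 20.2%. The median difference was above 0 on 18 of 19 chromosomes, from -44 to 409 bp.

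In base pairs the change was close to that of the peaks of 1000 to 2000 bp, and as a ratio it was smaller. The shorter peaks had a median difference of 173 bp (167 to 177) and a wider partner in 77.1%. The median ratio of partner to own width was 1.04 in broad peaks and 1.13 in the others. A partner at least 1.25-fold wider was found for 145 broad peaks, 13.4%, beside 39.9% of all control H3K4me3 peaks with a partner and 32.9% of those of 1000 to 2000 bp. A partner at least 1.25-fold narrower was found for 76, 7.04%, beside 3.97% and 4.45%. Both edges lay further out in Olig2cKO tumours for 493 broad peaks, 45.6%, beside 57.6% of all and 54.7% of the peaks of 1000 to 2000 bp. Both lay further in for 146, 13.5%, beside 7.91% and 9.54%. For 437 broad peaks, 40.5%, 1 edge lay further out and 1 further in, beside 33.9% and 35.2%. Across peaks, Spearman's rank correlation of own and partner width was 0.65 over the 1080 broad peaks and 0.54 over 16211 of the others, as a description. These points come from the same pair of libraries, and the first set spans a range bounded from below by the choice.

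The values of this comparison depended on the list from which the broad peaks were chosen. Olig2cKO tumours listed 2114 H3K4me3 peaks of at least 4000 bp on chromosomes 1 to 19, 4.44% of 47634. For these the control partner was narrower, with a median difference, control minus Olig2cKO, of -1017 bp (-1129 to -934), and a wider one in 11.1%. Only 45.8% of them had a control partner of 4000 bp or more. The peaks of 1000 to 2000 bp gave 173 bp in one direction and -177 bp in the other. Over all broad peaks of either choice the Olig2cKO peak was the wider one at the median. By control width the gain of the partner was 215.5 bp at 4 to 5 kb, 165.5 bp at 5 to 6 kb and 249.5 bp at 6 to 7 kb. It was 50 bp (-180 to 227) at 7 to 8 kb and -286.5 bp (-1049 to 71) in the 16 peaks of 8 kb or more with a partner, of which 43.8% had a wider one. The Olig2cKO list was also the longer one, and the parts of choice by width, genotype and depth were not tested.

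Of the broad peaks 69 had no Olig2cKO partner, 6.01% (4.70% to 7.54%), beside 8.14% of all control H3K4me3 peaks. The share was 2.79% in the peaks of 1000 to 2000 bp, a difference of 3.21 percentage points (1.95 to 4.76), and 1.50% in the peaks of 3 to 4 kb. It was higher in broad peaks than in those of 1000 to 2000 bp on 15 of 19 chromosomes. When peaks within 1 kb of each other were merged the order turned, with 2.96% of broad and 3.41% of the shorter peaks. By width the share was 2.81% at 4 to 5 kb, 6.40% at 5 to 6 kb, 10.8% at 6 to 7 kb, 15.3% at 7 to 8 kb and 38.5% at 8 kb or more.

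The 69 broad peaks without a partner were wide and low in score. Their median width was 5933 bp and their median score 343, against 4714 bp and 1208 in the broad peaks with a partner. H3K27ac was absent from both lists on 33 of them, 47.8%, beside 13.8% of all broad peaks and 25.5% of all control H3K4me3 peaks. An Olig2 peak lay on 66.7% of the 69, beside 78.8% of all broad peaks and 56.4% of all control H3K4me3 peaks. For the 69, the nearest Olig2cKO H3K4me3 peak was at a median distance of 8.36 kb. Of the 635 broad peaks with a score of 1000 or more, 4 lacked a partner, 0.630% (0.172% to 1.60%). Among the peaks of 1000 to 2000 bp at such scores 6 of 4907 did, 0.122% (0.0449% to 0.266%). In the reverse choice 12 of the 2114 broad Olig2cKO peaks, 0.568%, lacked a control partner. The share was 10.6% in the Olig2cKO peaks of 1000 to 2000 bp and 46.4% in those below 1 kb. No share over all Olig2cKO H3K4me3 peaks stands beside it. Among the broad Olig2cKO classes this reverse share was highest at 7 to 8 kb, at 2.86%, and was 0 of 54 at 8 kb or more, which allows up to 6.60%.

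**Figure D5:**
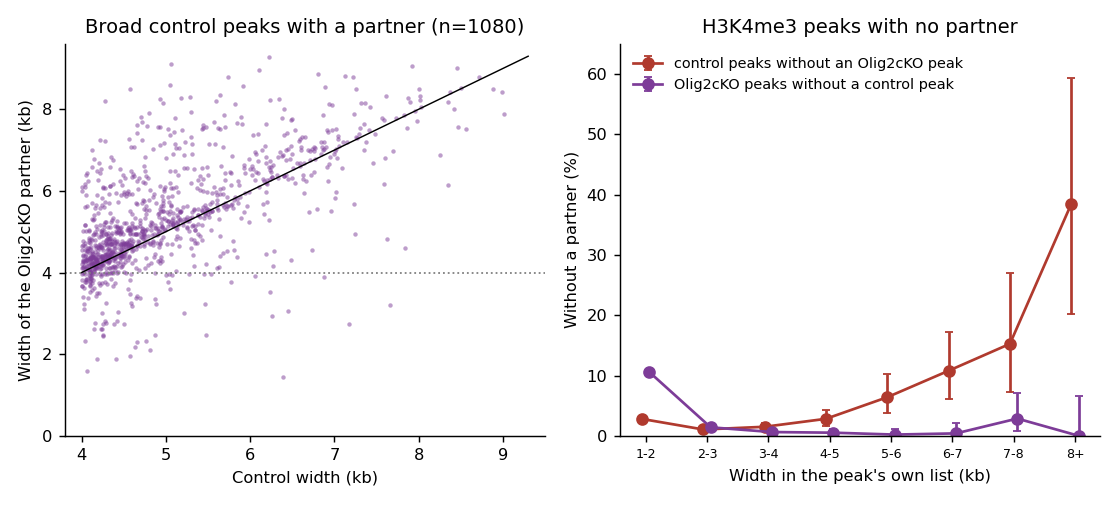
Left, control width and width of the Olig2cKO partner (both in kb) for the 1080 broad control peaks with a partner; the solid line marks equal width and the dotted line 4 kb, and 67.8% of the points lie above the solid line. Right, share of H3K4me3 peaks with no peak in the other genotype (y axis, percent, exact 95% intervals) by width in their own list in kb (x axis), which reaches 38.5% for control peaks of 8 kb or more.

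Among the peaks without a partner the highest in score was the one at chr16:38090074-38094450, with a score of 2065, a single Olig2 peak and no listed control H3K27ac. The second, at chr17:35837732-35842528, scored 1446, held 2 Olig2 peaks and lay wholly under H3K27ac in both genotypes. The third, at chr19:6418853-6423462, had no listed H3K27ac in either. The fourth, at chr13:105839485-105844584, was covered over 74.7% by control H3K27ac and had none listed in Olig2cKO tumours. The fifth, at chr6:134877155-134881857, lay wholly under Olig2cKO H3K27ac and had none listed in control tumours. All 5 held an Olig2 peak, and 3 of the 5 carried H3K27ac in Olig2cKO tumours, where their H3K4me3 was not listed.

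Partners far narrower than the broad peak were few and mostly on peaks of lower score. The lowest ratio was 0.227, at chr6:21165127-21171514, where a peak of 6388 bp and score 108 had a partner of 1448 bp. The next, at chr1:173175602-173182779, measured 7178 bp and had a partner of 2733 bp, and H3K27ac covered 96.7% of it in control and 83.0% in Olig2cKO tumours. Of the 5 lowest ratios, 4 had no Olig2 peak and no Olig2cKO H3K27ac. The highest ratio was 1.91, at chr4:154591674-154595957, where a control peak of 4284 bp had a partner of 8193 bp, with H3K27ac over all of the peak in control and 95.9% in Olig2cKO tumours. The peak at chr6:144154607-144159673, with a ratio of 1.80, had a partner of 9112 bp and H3K27ac in control tumours alone.

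Partners were also compared between broad peaks with and without Olig2. Partners were wider by a median of 180 bp where Olig2 was present and 228 bp where it was not. A partner was missing for 5.08% of the broad peaks with Olig2 and for 9.43% of those without, beside 8.14% of all control H3K4me3 peaks. The share with a partner of 4000 bp or more was 85.7% with Olig2 and 78.7% without. Broad peaks with Olig2 also had the higher median H3K4me3 score, and the part of score in these differences was not tested.

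The values next to the limit of choice describe where it fell. The 3 just inside measured 4002, 4003 and 4005 bp, had scores of 946, 1218 and 2439, and each held 1 Olig2 peak. Their partners measured 6100, 3829 and 3666 bp. The 3 just outside measured 3999, 3998 and 3998 bp, with scores of 2327, 1855 and 1141 and partners of 4425, 6350 and 5021 bp, and 1 of them held an Olig2 peak.

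Taking the 4 other lists jointly, 625 broad peaks, 54.4%, held an Olig2 peak, carried H3K27ac in both genotypes and had a partner of at least 4000 bp. Their median width was 4737 bp and their median score 1404. A further 114, 9.92%, had the same marks without Olig2, with a median score of 1118. H3K27ac in neither genotype, with a partner of at least 4000 bp, was found on 68 peaks with Olig2 and 48 without. Olig2 with no H3K27ac in either genotype and no partner was found on 21 peaks, whose median width was 6824 bp and median score 348. These combinations were counted over broad peaks only. No share over all control H3K4me3 peaks stands beside them, so they do not show whether a combination is particular to broad peaks.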

How the data were processed

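Each library was processed to a list of peaks with CASAVA, Bowtie2 and MACS on mm9, per the submitters' processing notes. The sources used here give no versions or settings and do not say whether an input library was used. Each deposited list gives a start, an end and a score per peak, as the authors made them; read numbers are not given, so the depth is unknown. Peaks on chromosomes 1 to 19 were compared by overlap of at least 1 bp in Python 3.11.15 (numpy 2.4.6, pandas 2.3.3). The counts were identical to those of bedtools 2.31.1 in 4 comparisons, and the functions were tested on simulated lists. Cover is the percent of a peak's bases under the other list. Shares carry exact (Clopper-Pearson) 95% intervals from scipy 1.17.1, medians order-statistic intervals and differences of shares Newcombe intervals from statsmodels 0.14.6. With 1 library per group there was no test between genotypes and no p-value.

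The members, the peaks of 1000 to 2000 bp beside them and the lists were chosen with earlier results of these data known. Named regions were the 5 widest broad peaks, the 5 highest in score, the 5 with most Olig2 peaks, the 5 highest without a partner, the 5 with the lowest and the 5 with the highest ratio of partner to own width, the 5 highest with H3K27ac in 1 genotype alone for each genotype, and the 3 peaks on either side of 4000 bp. Ties were taken by score and then in chromosome order, and not every one is printed. Alternatives were other width limits, the upper 50% of each list, an overlap of 50% of the shorter peak, merging of peaks within 1 kb, lists shortened to equal length, the middle 1 kb, the span of all partners, chromosome X and leaving out Olig2 peaks matched in all 4 histone lists. Broad peaks under 6000 bp and control peaks with a score of 1000 or more were added after the data were seen. The full genotype that both groups share is not reported here.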

Additional observations from a re-analysis of the deposited data

Results flagged for a closer look

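Chromosome X, which the choice of broad peaks leaves out, held 34 control H3K4me3 peaks of at least 4000 bp among 1139, a signal outside the peaks described above. Of the 34, 22 held an Olig2 peak, 31 carried H3K27ac in control and 30 in Olig2cKO tumours, 31 had an Olig2cKO H3K4me3 partner, and 25 of the partners were at least 4000 bp wide.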

How the results depend on the processing

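No paired analysis was possible because each group had 1 library. The share of broad peaks with Olig2 (78.8%) was 54.0% in the upper 50% of each list by score, 69.5% with an overlap of 50% of the shorter peak, 83.7% with peaks within 1 kb merged, 37.5% in the middle 1 kb and 86.6% at scores of 1000 or more. Control H3K27ac cover (72.0%) was 64.6% in the upper 50%, 66.0% after merging and 78.6% at scores of 1000 or more. In the last setting and in the upper 50% it exceeded that of the peaks of 1000 to 2000 bp (74.1% and 55.5%). Olig2cKO cover (65.7%) was 60.3% from 5000 bp, 53.2% in the upper 50%, 60.9% after merging, 61.3% with lists of equal length and 76.2% at scores of 1000 or more, where the shorter peaks had 75.1%. The share without a partner (6.01%) was 4.43% from 3500 bp, 10.5% from 5000 bp, 10.9% in the upper 50%, 2.96% after merging, 3.78% under 6000 bp and 0.630% at scores of 1000 or more. The width difference (195 bp) was 137.5 bp from 5000 bp. Against the shorter peaks it turned to the lower one in the upper 50% (167 and 190 bp) and at scores of 1000 or more (189 and 216 bp). The share with a partner of 4000 bp or more (84.2%) was 70.9% from 3500 bp, 79.6% in the upper 50%, 86.7% after merging and 88.5% at scores of 1000 or more. The other 34 alternative values of these results moved by less than their interval, none changed sign, and the cause of the changes was not tested. The number of broad peaks was 1804 from 3500 bp, 474 from 5000 bp, 2264 after merging and 635 at scores of 1000 or more. Depth is unknown for each library, so it limits every count of unlisted peaks to a statement about these lists.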

Other observations

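The 20 pairs of broad peaks at most 10 kb apart spanned 9.37 to 22.4 kb from outer edge to outer edge. The longest, at chr7:80680590-80702976, held 2 Olig2 peaks, had no listed H3K27ac in either genotype and had broad Olig2cKO partners for both of its peaks. The pair at chr13:21249999-21266117 held 4 Olig2 peaks, the most of any pair, with H3K27ac in both genotypes on both peaks. The pairs at chr13:23608082-23625873 and chr13:23520979-23531257 lay near each other on chromosome 13, and all 4 of their peaks had H3K27ac in both genotypes and broad partners. A pair at chr6:31035419-31051045 had control H3K27ac on both peaks and none listed in Olig2cKO tumours, while both partners were broad. The pairs at chr12:30210497-30224327 and chr4:22409449-22419671 had no Olig2cKO partner for either peak and no listed Olig2cKO H3K27ac.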
